A study of Mus musculus with 16 samples.

Results

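The tumour necrosis factor (TNF) ligands and receptors were followed in cells washed from the lungs of mice given saline or bleomycin. The genes were every protein-coding row of the count table whose symbol begins with Tnfsf or Tnfrsf, together with Tnf, Lta, Ltb, Cd40 and Cd40lg. This gave 37 genes, 16 ligands and 21 receptors, among 54532 rows in all and 22046 protein-coding rows. Receptors and ligands of the superfamily under other symbols, such as Fas and Cd27, were counted separately.

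Ligands of this family are mostly trimers held in the cell membrane, some of which are cut off into the fluid. Their receptors either carry a death domain, through which caspases or necroptosis can be engaged, or bind TRAF adaptors, which pass the signal to NF-kB and MAP kinases. Several pairs act between lymphocytes and the cells that present antigen to them, others keep B cells alive, and a few receptors bind ligand without signalling. Alveolar macrophages, the main resident cell of the lavage, are a well known source of TNF in the injured lung.

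The study sequenced RNA from bronchoalveolar lavage cells of male and female mice of 8 to 10 weeks, and its title asks whether the sexes differ in their response to bleomycin, an antibiotic that breaks DNA and is widely used to inflame and scar the mouse lung. Saline, or bleomycin at 4 U/kg, was given by the oropharyngeal route, and day 14 is the time given for every group. The strain is C57BL/6 in the series design and is spelt C56BL/6J in the sample labels, and no group carried a transgene or a deleted gene. The groups of 4 libraries were saline females (C74, C75, C76 and C77), saline males (C70, C71, C72 and C73), bleomycin females (C49, C50, C68 and C69) and bleomycin males (C33, C65, C66 and C67), and values below are listed in that order. The labels do not say whether a library came from one mouse or from a pool, so the p-values measure the spread between these libraries.

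Total counts ran from 16385784 to 24567609 per library, and levels are given as CPM, a gene's counts relative to the TMM-scaled size of its library. Alveolar macrophage markers summed to 16530 to 25820 CPM in saline and 10500 to 23450 CPM in bleomycin libraries, with none of the 11 at 0 in any group. Most of this sum was Chil3, with group means of 12270 to 18640 CPM, which was not called. Of the 11, 8 fell and 1 rose, with a median log2 fold change of -1.2. Markers of other cells moved with bleomycin too. All 15 T cell markers summed to 240.3 to 275.6 CPM in saline and 331.3 to 667.6 CPM in bleomycin libraries, and 14 of the 15 rose. The exception, Cd2, fell by 1.10 on the log2 scale (SE 0.0884), and without it the sum was 2.68 to 5.61 CPM in saline and 179.1 to 565.2 CPM in bleomycin libraries; this sum without Cd2 is the one used below. B and plasma cell markers (9 of 9 tested rose) went from 0.833 to 1.39 CPM up to 58.8 to 373.4 CPM, dendritic cell markers (9 of 9) from 25.3 to 58.8 CPM up to 320.3 to 722 CPM, and natural killer cell markers (8 of 8) from 0.931 to 2.98 CPM up to 30.2 to 82.2 CPM. Monocyte and monocyte-derived macrophage markers (10 of 11 rose) went from 505.5 to 620.3 CPM up to 5223 to 12080 CPM, neutrophil markers (5 of 6) from 81.6 to 124.6 CPM up to 184.3 to 228.6 CPM, and fibroblast and endothelial markers (4 of 4) from 0.114 to 0.727 CPM up to 7.42 to 33.5 CPM. The summed epithelial markers went from 741.8 to 883.1 CPM down to 254.6 to 486.7 CPM, although 6 of the 9 rose and 2 fell. Defining markers at 0 counts included Ncr1 of natural killer cells in both saline groups, Jchain in saline females, Cd79b, Pax5 and Mzb1 in saline males, and Ly6g of neutrophils in 3 of the 4 groups. The part of these cells in the results below was not tested, and in bulk RNA more cells of a type and more RNA per cell cannot be told apart.

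Bleomycin was accompanied by higher levels of most of the family. Of the 32 members with enough counts to be tested, 24 rose, 4 fell and 4 were not called in the mean of the sexes (edgeR quasi-likelihood test, Benjamini-Hochberg adjusted p below 0.05 over 15257 genes). Over all genes tested, 63.6% were called, 34.7% higher and 28.8% lower. The median log2 fold change was 1.10 over the tested members and 0.0116 over all genes. At least a 2-fold rise was found in 16 members and at least a 2-fold fall in 2, and 10 called members changed by less. The share of all genes with changes of this size is not given here.

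The low-count filter shaped these counts. Of the 32 members, 10 passed it only through their bleomycin libraries (Ltb, Lta, Tnfsf8, Tnfsf9, Tnfsf11, Cd40lg, Tnfrsf10b, Tnfrsf13c, Tnfrsf14 and Tnfrsf25), and these had to be higher there. The other 22 were above 0.51 CPM in at least 4 saline libraries, and 14 of them rose, 4 fell and 4 were not called, with a median log2 fold change of 0.593. Among all 13709 genes above the filter in at least 4 saline libraries, 61.4% were called, 29.4% higher and 32% lower. Tnfsf18, among the 4 that fell, was the opposite case. It was above the filter in 7 saline and 0 bleomycin libraries, so it had to be lower with bleomycin. All 10 members that passed only through bleomycin libraries were among the 16 with at least a 2-fold rise. Tnfsf18 was among the 2 with at least a 2-fold fall.

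The 8 bleomycin libraries lay above all 8 saline libraries in 18 members and below them in 1, Tnfsf13b. In 13 members the libraries of the treatments overlapped. Over all genes tested, 29.5% had no overlap, 19.2% above and 10.3% below. Of the 18, 9 had passed the filter only through bleomycin libraries. Among the 22 members above the filter in at least 4 saline libraries, 9 lay above and 1 below, beside 25.4% of such genes without overlap, 13.9% above and 11.5% below.

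**Figure D1:**
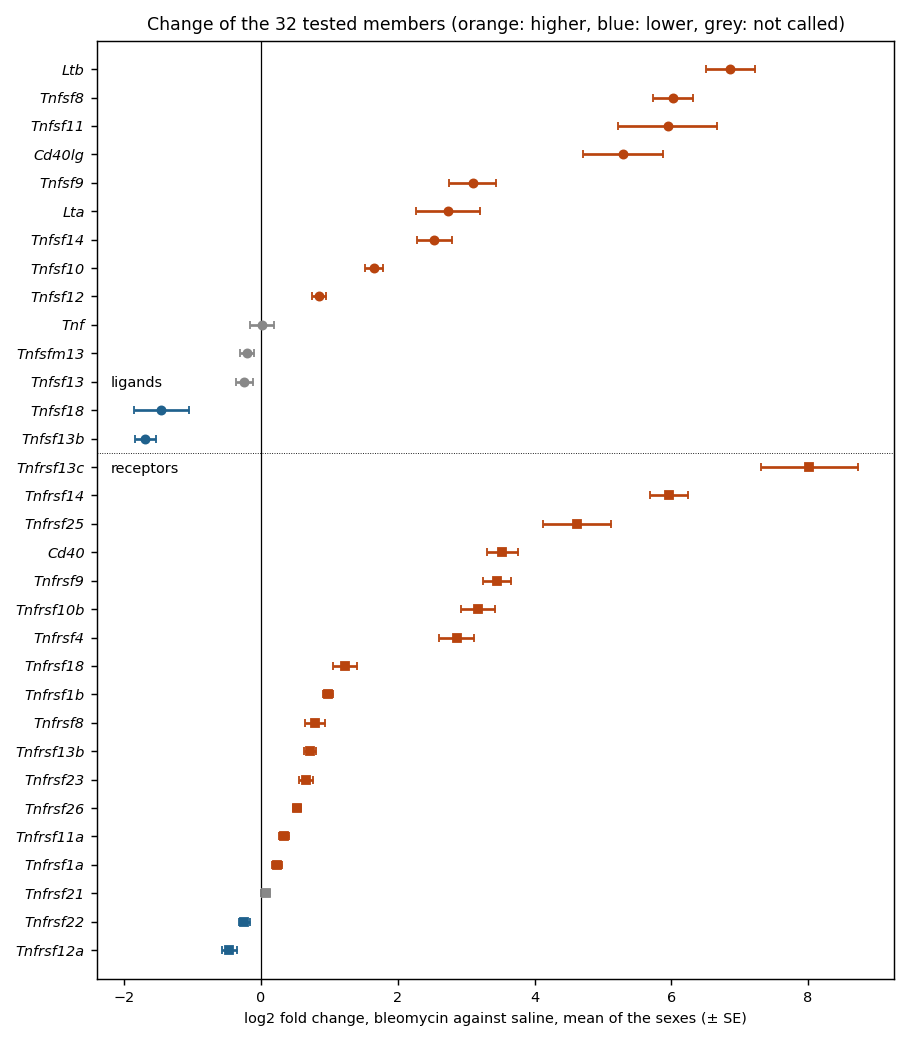
Log2 fold change of bleomycin against saline in the mean of the sexes (x axis, bars ± SE) for the 32 tested members (y axis), ligands above the dotted line and receptors below, with orange for higher, blue for lower and grey for not called. The higher calls run from Tnfrsf1a at 0.23 upward, while Tnfsf13b at -1.69 is the lowest; the points of Tnfrsf13c, Tnfsf11 and Cd40lg rest on 2 to 6 saline counts.

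The family is unevenly spread over the genome (GRCm38). Chromosome 4 holds 9 members, and its 7 receptors (Tnfrsf1b, Tnfrsf8, Tnfrsf9, Tnfrsf25, Tnfrsf14, Tnfrsf4 and Tnfrsf18), between positions 145213463 and 156028895, all rose, beside 34.7% of all genes tested. Among these receptors Tnfrsf14 and Tnfrsf25 passed the filter only through bleomycin libraries. Ltb, Tnf and Lta lie side by side on chromosome 17 from 35194439 to 35205351, where Ltb and Lta rose and Tnf was not called. Ltb and Lta also passed the filter only through bleomycin libraries. Tnfrsf26, Tnfrsf22 and Tnfrsf23 lie side by side on chromosome 7 from 143607659 to 143685872, where Tnfrsf26 and Tnfrsf23 rose and Tnfrsf22 fell.

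Promoter sequence is shown for Ltb and Tnfrsf25, chosen because they rose and held a motif match that lies outside annotated exons, for Tnfsf8, which rose more than Tnfrsf25 and held none, and for Tnfsf13b, which fell and held none. The sequences are RefSeq promoters on GRCm38.p6, 5′ to 3′ on the gene's strand (minus for Tnfsf8 and plus for the others), and the capitals mark a match to an NF-kB motif, GGG, any 2 bases and then TTTCC, searched on both strands (on the opposite strand it reads GGAAA, any 2 bases and CCC). NF-kB is the transcription factor reached by most of these receptors.
Ltb (chr17:35194257-35194438): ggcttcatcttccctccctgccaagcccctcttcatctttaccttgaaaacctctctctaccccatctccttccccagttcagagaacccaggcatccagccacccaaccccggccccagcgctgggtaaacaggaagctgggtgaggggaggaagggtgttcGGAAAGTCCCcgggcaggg
Tnfrsf25 (chr4:152115684-152115933): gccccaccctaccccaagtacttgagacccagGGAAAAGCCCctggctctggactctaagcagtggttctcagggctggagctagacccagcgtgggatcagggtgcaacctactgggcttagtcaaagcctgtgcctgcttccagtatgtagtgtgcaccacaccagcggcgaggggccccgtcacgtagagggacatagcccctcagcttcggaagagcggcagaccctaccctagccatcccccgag
Tnfsf8 (chr4:63861348-63861534): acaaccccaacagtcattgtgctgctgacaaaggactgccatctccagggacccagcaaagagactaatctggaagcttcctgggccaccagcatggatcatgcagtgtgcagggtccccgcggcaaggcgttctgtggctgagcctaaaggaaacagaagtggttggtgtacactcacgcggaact
Tnfsf13b (chr8:10006217-10006466): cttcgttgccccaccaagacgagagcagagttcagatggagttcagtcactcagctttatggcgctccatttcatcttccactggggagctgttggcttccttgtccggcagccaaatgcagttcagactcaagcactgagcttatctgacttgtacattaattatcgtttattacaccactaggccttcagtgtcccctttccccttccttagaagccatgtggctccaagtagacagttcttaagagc

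The match in Ltb begins 87 bases upstream of the RefSeq start and that in Tnfrsf25 218 bases upstream, both on the opposite strand, and the 250 bases before the Tnfsf8 start and before the first Tnfsf13b start held none. The 68 bases nearest the start of Ltb and the 63 nearest that of Tnfsf8 are left out because an exon covers them. Tnfrsf13c, Tnfrsf14 and Tnfsf11, whose fitted rises were also above that of Tnfrsf25, held no match and are not shown. RefSeq promoters were matched for 28 of the 37 members, with 32 starts, and 3 of these starts (9.38%) held the motif within 250 bases upstream, against 464 of 32851 starts over all genes (1.41%). The third was a second start of Tnfrsf9. A match is a run of letters and no evidence of binding, and no match says only that these letters are absent from the window. No entry was used for Cd40, Cd40lg, Tnfrsf10b, Tnfrsf11b, Tnfrsf22, Tnfrsf26, Tnfsf4, Tnfsf9 and Tnfsf12.

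Among the ligands, lymphotoxin beta rose most in level, while TNF itself was not called. Of 14 ligands tested, 9 rose, 2 fell and 3 were not called, with a median log2 fold change of 2.09. Of the 9, 6 had passed the filter only through bleomycin libraries, and among the other 8 ligands 3 rose, 2 fell and 3 were not called, with a median of -0.095. Tnfsf18, among the 2 that fell, had passed only through saline libraries. Ltb (ENSMUSG00000024399), which holds lymphotoxin on the cell surface and is made mainly by lymphocytes, stood at 0.0555, 0.566, 0.420 and 0.398 CPM in saline females and 0.465, 0.687, 0.343 and 0.533 CPM in saline males. It reached 53.3, 59.4, 18.8 and 34.2 CPM in bleomycin females and 25.7, 90.9, 65.5 and 67.8 CPM in bleomycin males. Every bleomycin library was far above every saline library, and the bleomycin libraries themselves differed by 4.85 times, with C68, C33 and C69 lowest. The log2 fold change of Ltb was 6.86 (SE 0.36, edgeR adjusted p = 1.01e-11), from 68 counts in all saline libraries and 8578 in all bleomycin libraries. Their ratio was 119, with a 95% counting interval of 94.1 to 154.

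Lta, the soluble lymphotoxin, rose from a much lower level, 0.137 ± 0.0954 CPM in saline females and 0.186 ± 0.150 CPM in saline males against 1.13 ± 0.862 and 1.04 ± 0.308 CPM with bleomycin (SD, n = 4). Its log2 fold change was 2.73 (SE 0.465, edgeR adjusted p = 5.43e-05), and the treatments overlapped at the lowest bleomycin female, C69. Tnf (ENSMUSG00000024401), the macrophage cytokine that gives the family its name, stood at 6.33, 8.05, 3.73 and 5.34 CPM in saline females and 6.00, 10.1, 6.32 and 9.69 CPM in saline males. It stood at 6.05, 9.13, 6.79 and 7.99 CPM in bleomycin females and 6.16, 4.30, 9.38 and 5.82 CPM in bleomycin males. The groups overlapped throughout, and the log2 fold change was 0.013 (SE 0.18, edgeR adjusted p = 0.955). Tnf was the member with opposite signs in the sexes, -0.32 (SE 0.254) in males and 0.35 (SE 0.256) in females, neither called, and the difference between these changes had an unadjusted p of 0.0792 and an adjusted p of 0.645 by edgeR's quasi-likelihood test.

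Costimulatory ligands stimulate T cells or antigen-presenting cells during contact. Of 7 such ligands 5 were tested, and Tnfsf8, Tnfsf14, Tnfsf9 and Cd40lg rose while Tnfsf18 fell. Tnfsf8, Tnfsf9 and Cd40lg were tested only because their bleomycin libraries passed the filter, so their direction was fixed by it. Tnfsf18 was tested only because of its saline libraries, 7 above the filter against 0 with bleomycin, so its fall was fixed too. Tnfsf8 (ENSMUSG00000028362), the CD30 ligand, stood at 0.278, 0.217, 0.315 and 0.227 CPM in saline females and 0.0517, 0.115, 0.196 and 0.291 CPM in saline males. With bleomycin it reached 15.02, 17.3, 8.46 and 7.37 CPM in females and 9.87, 20.7, 13.4 and 19.8 CPM in males. The treatments did not overlap, and the log2 fold change was 6.02 (SE 0.29, edgeR adjusted p = 3.18e-12), a count ratio of 67 (95% counting interval 47.6 to 97.6).

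Tnfsf14 (ENSMUSG00000005824), also called LIGHT, a ligand of the lymphotoxin beta receptor and of Tnfrsf14, stood at 0.833, 1.70, 1.68 and 1.65 CPM in saline females and 1.55, 0.401, 0.490 and 1.11 CPM in saline males. It stood at 4.68, 7.11, 10.2 and 9.15 CPM in bleomycin females and 4.06, 4.51, 7.45 and 6.85 CPM in bleomycin males. No library overlapped, and here C68 and C69 were the highest bleomycin libraries, where Ltb had them among the lowest. Tnfsf14 rose by 2.53 on the log2 scale (SE 0.257, edgeR adjusted p = 9.27e-08).

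Cd40lg, which helper T cells use to activate B cells and macrophages, had 6 counts in all saline libraries, found in C75 and C71, and 280 in bleomycin libraries. The count ratio was 44.2 (95% counting interval 20.1 to 121), and the fitted log2 fold change of 5.29 (SE 0.587, edgeR adjusted p = 3.1e-07) became 6.87 without C75 and 6.48 without C71. Tnfsf9, the ligand of Tnfrsf9, had 25 saline and 224 bleomycin counts and a log2 fold change of 3.10 (SE 0.347, edgeR adjusted p = 3.55e-07); 14.9% of its exonic bases lie opposite the non-coding gene Gm11110. Tnfsf18, the ligand of Tnfrsf18, went from 0.558 ± 0.253 CPM in saline females and 0.629 ± 0.0977 CPM in saline males to 0.280 ± 0.167 and 0.163 ± 0.118 CPM (SD, n = 4), a log2 fold change of -1.46 (SE 0.404, edgeR adjusted p = 0.00422). Tnfsf4, the OX40 ligand, and Tnfsf15, a ligand of Tnfrsf25, were too low to test, with 22 and 8 counts in all saline libraries and 76 and 28 in all bleomycin libraries.

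Tnfsf13b (ENSMUSG00000031497), also called BAFF, a survival factor of B cells made by myeloid cells, had the largest fall in the mean of the sexes. It stood at 16.8, 16.7, 14.5 and 18.9 CPM in saline females and 14.3, 12.02, 17.4 and 18.3 CPM in saline males. It stood at 3.51, 4.00, 5.33 and 5.71 CPM in bleomycin females and 8.12, 4.04, 5.31 and 3.94 CPM in bleomycin males. Every bleomycin library was below every saline library, with C33 nearest to them. Tnfsf13b had a log2 fold change of -1.69 (SE 0.152, edgeR adjusted p = 1.71e-08), so saline libraries were 3.23-fold higher. Alveolar macrophage markers, of which 8 of 11 fell and 1 rose, moved the same way; their part in this fall was not tested.

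Tnfsf13, also called APRIL, another ligand of the B cell receptors below, was not called at -0.25 (SE 0.124, edgeR adjusted p = 0.0862). It overlaps the read-through gene Tnfsfm13, which joins Tnfsf12 and Tnfsf13 on chromosome 11 between 69682577 and 69696098, at 60.0% of its exonic bases, and the antisense gene Tnfsf13os at 13.5%. Whether counting used strand is not given in the sources used here, and reads in shared exons may have been split or dropped, so the levels of these genes are uncertain. Tnfsf12 (ENSMUSG00000097328), also called TWEAK, shares 48.3% of its exonic bases with Tnfsfm13. It stood at 18.7, 16.8, 15.98 and 18.6 CPM in saline females and 15.5, 23.01, 17.6 and 13.5 CPM in saline males. With bleomycin it stood at 25.8, 25.7, 32.6 and 36.7 CPM in females and 33.1, 36.0, 30.8 and 31.7 CPM in males. Every bleomycin library was higher, and the log2 fold change was 0.85 (SE 0.102, edgeR adjusted p = 8.26e-07). Tnfsfm13 was not called at -0.20 (SE 0.105, edgeR adjusted p = 0.099). Calls of Tnfsf13 and Tnfsfm13 depended on the libraries and the scaling: both were called lower with library totals alone as the scale (-0.47 and -0.41, adjusted p = 0.00294 and 0.00186).

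Tnfsf10 (ENSMUSG00000039304), also called TRAIL, a ligand that can trigger apoptosis, stood at 2.78, 3.70, 2.94 and 2.78 CPM in saline females and 3.26, 2.98, 3.04 and 2.33 CPM in saline males. It stood at 10.4, 10.3, 6.47 and 8.54 CPM in bleomycin females and 9.34, 9.54, 8.79 and 11.6 CPM in bleomycin males. All bleomycin libraries were above all saline ones, and the log2 fold change was 1.65 (SE 0.126, edgeR adjusted p = 1.76e-09). Tnfsf11, also called RANKL, the ligand that drives osteoclast formation, had 2 counts in saline, both in C72, and 143 in bleomycin libraries. Their ratio was 67.7 with a 95% counting interval of 18.4 to 565, and the fitted log2 fold change of 5.94 (SE 0.729, edgeR adjusted p = 3.67e-06) became 7.11 without C72.

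**Figure D2:**
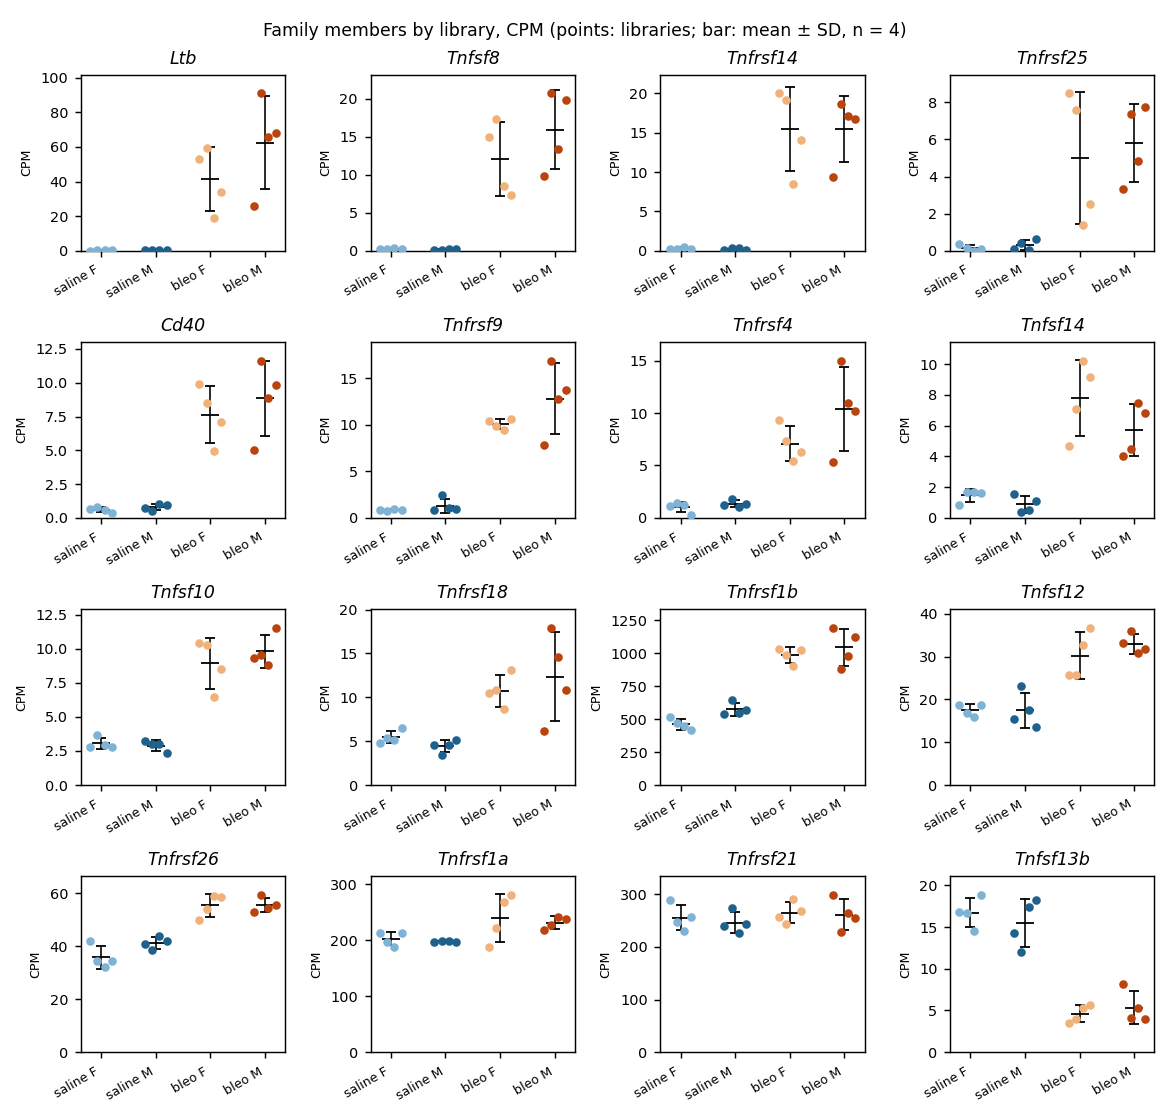
CPM (y axes, each from 0) of 16 members in the 4 groups (x axis), with a point for each library and bars for the mean ± SD (n = 4). Ltb, Tnfsf8, Tnfrsf14 and Tnfrsf25 lie near 0 in saline and spread widely with bleomycin, Tnfrsf21 overlaps throughout, and Tnfsf13b is lower with bleomycin.

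Among the receptors, the TRAF-binding costimulatory receptors rose together, and the 3 most abundant receptors changed by less than 2-fold in the mean of the sexes. Of 18 receptors tested, 15 rose, 2 fell and 1 was not called, with a median log2 fold change of 0.884. Among the 14 receptors above the filter in at least 4 saline libraries, 11 rose, 2 fell and 1 was not called, with a median of 0.687. All 6 costimulatory receptors (Cd40, Tnfrsf4, Tnfrsf8, Tnfrsf9, Tnfrsf14 and Tnfrsf18) rose. Tnfrsf14 passed the filter only through bleomycin libraries, so its direction was fixed by it. The other 5 rose beside 29.4% of all genes above the filter in at least 4 saline libraries. Their changes ran from 0.79 (SE 0.141) in Tnfrsf8 to 5.96 (SE 0.276) in Tnfrsf14, on the log2 scale.

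Tnfrsf14 (ENSMUSG00000042333), also called HVEM, a receptor of Tnfsf14 and of lymphotoxin alpha, stood at 0.222, 0.261, 0.473 and 0.170 CPM in saline females and 0.103, 0.286, 0.343 and 0.0969 CPM in saline males. It stood at 20, 19.1, 8.46 and 14.1 CPM in bleomycin females and 9.34, 18.7, 17.1 and 16.8 CPM in bleomycin males. The treatments did not overlap, and C68, C33 and C69 were again the lowest bleomycin libraries. The adjusted p by edgeR was 1.94e-12, and the ratio of 2547 to 38 counts was 63.5 (95% counting interval 46.1 to 89.9).

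Cd40 (ENSMUSG00000017652), the receptor of Cd40lg on B cells, dendritic cells and macrophages, stood at 0.666, 0.827, 0.578 and 0.341 CPM in saline females and 0.724, 0.515, 1.03 and 0.969 CPM in saline males. It stood at 9.90, 8.50, 4.96 and 7.12 CPM in bleomycin females and 5.02, 11.6, 8.84 and 9.85 CPM in bleomycin males. The lowest bleomycin library was above the highest saline one, and the log2 fold change was 3.53 (SE 0.225, edgeR adjusted p = 1.6e-10).

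Tnfrsf9 (ENSMUSG00000028965), a receptor of activated T cells, stood at 0.833, 0.740, 0.946 and 0.852 CPM in saline females and 0.827, 2.40, 1.03 and 0.920 CPM in saline males. It stood at 10.4, 9.89, 9.45 and 10.6 CPM in bleomycin females and 7.77, 16.9, 12.8 and 13.7 CPM in bleomycin males. No library overlapped, the bleomycin females lay close together, and the log2 fold change was 3.45 (SE 0.205, edgeR adjusted p = 5.77e-11).

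Tnfrsf4 (ENSMUSG00000029075), also called OX40, another receptor of activated T cells, stood at 1.11, 1.39, 1.26 and 0.284 CPM in saline females and 1.24, 1.83, 1.03 and 1.31 CPM in saline males. It stood at 9.31, 7.32, 5.43 and 6.26 CPM in bleomycin females and 5.28, 15, 10.9 and 10.2 CPM in bleomycin males. No library overlapped, and the log2 fold change was 2.86 (SE 0.25, edgeR adjusted p = 1.25e-08). Its neighbour on chromosome 4, Tnfrsf18 (ENSMUSG00000041954), also called GITR and known from regulatory T cells, changed less.

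Tnfrsf18 stood at 4.83, 5.39, 5.15 and 6.47 CPM in saline females and 4.55, 3.43, 4.61 and 5.13 CPM in saline males, and at 10.4, 10.8, 8.62 and 13.1 CPM in bleomycin females. In bleomycin males it stood at 6.11, 17.9, 14.6 and 10.8 CPM, so C33 lay below the highest saline library. The log2 fold change was 1.22 (SE 0.174, edgeR adjusted p = 7.05e-06), and 27.2% of its exonic bases lie opposite the antisense gene Gm16008, whose reads cannot be told apart without strand.

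Death-domain receptors fell into an abundant pair that changed little and a rare pair that rose. The rare pair, Tnfrsf25 and Tnfrsf10b, passed the low-count filter only through bleomycin libraries, so its direction was fixed by the filter. Tnfrsf1a (ENSMUSG00000030341), the main TNF receptor of most cells, stood at 213.0, 196.6, 188.7 and 212.3 CPM in saline females and 196.2, 199.4, 198.7 and 196.7 CPM in saline males. It stood at 187.3, 221.1, 269.1 and 281.0 CPM in bleomycin females and 218.1, 227.7, 242.3 and 238.3 CPM in bleomycin males. The bleomycin females straddled the saline range, with C49 below it and C50, C68 and C69 above it, and every bleomycin male lay above it. The log2 fold change of 0.23 (SE 0.0704, edgeR adjusted p = 0.00739) was called in the mean of the sexes and in neither sex alone. It was 0.12 (adjusted p = 0.0611) when C33, C68 and C69 were omitted together and 0.017 (adjusted p = 0.783) with library totals alone as the scale.

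Tnfrsf21 (ENSMUSG00000023915), also called death receptor 6, stood at 288.3, 248.2, 229.6 and 257.1 CPM in saline females and 239.9, 274.3, 225.9 and 244.1 CPM in saline males. It stood at 257.3, 242.7, 291.2 and 268.9 CPM in bleomycin females and 298.8, 229.0, 263.9 and 254.1 CPM in bleomycin males. The groups overlapped throughout, and the log2 fold change was 0.069 (SE 0.0664, edgeR adjusted p = 0.373).

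Tnfrsf25 (ENSMUSG00000024793), also called death receptor 3, the T cell receptor of Tnfsf15, stood at 0.389, 0.131, 0 and 0.114 CPM in saline females and 0.103, 0.401, 0.049 and 0.630 CPM in saline males. It stood at 8.49, 7.57, 1.41 and 2.52 CPM in bleomycin females and 3.32, 7.39, 4.87 and 7.74 CPM in bleomycin males. No library overlapped, and the bleomycin libraries differed by 6.02 times. Tnfrsf25 had a log2 fold change of 4.62 (SE 0.498, edgeR adjusted p = 2.12e-07), with 35 saline and 910 bleomycin counts. Tnfrsf10b, the mouse receptor of Tnfsf10, rose from 0.328 ± 0.193 and 0.396 ± 0.102 CPM in saline females and males to 3.33 ± 0.675 and 3.32 ± 0.741 CPM (SD, n = 4), a log2 fold change of 3.17 (SE 0.246, edgeR adjusted p = 2.28e-09).

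The receptors of the B cell survival ligands were split between a gene present in saline lavage and genes that were nearly absent from it. Tnfrsf13b, also called TACI, a receptor of both BAFF and APRIL, was 23.3 ± 2.55 CPM in saline females and 18.2 ± 1.89 CPM in saline males, and 32.6 ± 3.24 and 35.2 ± 6.48 CPM with bleomycin (SD, n = 4). It rose by 0.72 on the log2 scale (SE 0.0901, edgeR adjusted p = 1.56e-06), and no bleomycin library reached down to a saline one. Tnfrsf13c, the receptor that takes BAFF alone and is known from mature B cells, had 0 counts in saline females, which is below the limit of 0.0386 CPM set by 3 counts over the group, and 318 in bleomycin females, a ratio with a 95% lower counting limit of 83.5. In males it had 2 counts against 291, a ratio of 134 (95% counting interval 36.8 to 1110). Tnfrsf17, the receptor of plasma cells, had 0 counts in saline and 13 with bleomycin and was not tested.

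Tnfrsf1b (ENSMUSG00000028599), the TNF receptor that lacks a death domain and binds TRAF proteins, was the most abundant member. It stood at 515.2, 474.3, 446.8 and 414.9 CPM in saline females and 541.1, 643.5, 543.8 and 566.5 CPM in saline males. It stood at 1034, 989.5, 900.8 and 1028 CPM in bleomycin females and 1195, 880.0, 982.6 and 1125 CPM in bleomycin males. All bleomycin libraries were above all saline libraries, and within saline all males were above all females. Its log2 fold change was 0.98 (SE 0.0715, edgeR adjusted p = 1e-09).

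Other TRAF-binding receptors changed less. Tnfrsf11a, also called RANK, the receptor of Tnfsf11, was 29.0 ± 2.04 and 29.4 ± 2.47 CPM in saline females and males and 36.3 ± 4.81 and 37.4 ± 1.98 CPM with bleomycin (SD, n = 4), a log2 fold change of 0.33 (SE 0.0676, edgeR adjusted p = 0.000312) that was 0.12 (adjusted p = 0.0923) with library totals alone as the scale. Tnfrsf12a, the receptor of Tnfsf12, went from 19.1 ± 3.23 and 14.0 ± 2.82 CPM to 12.01 ± 1.33 and 11.6 ± 1.62 CPM in females and males (SD, n = 4). It fell by 0.47 on the log2 scale (SE 0.11, edgeR adjusted p = 0.0012), while its ligand gene rose. Tnfrsf19 had 4 saline and 10 bleomycin counts and was not tested.

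Receptors without a known signalling domain are neighbours on chromosome 7. Tnfrsf26 (ENSMUSG00000045362) stood at 41.9, 34.2, 32.3 and 34.5 CPM in saline females and 40.7, 38.6, 43.9 and 42.0 CPM in saline males. It stood at 49.99, 53.9, 59.0 and 58.7 CPM in bleomycin females and 53.0, 59.4, 54.4 and 55.4 CPM in bleomycin males. No library overlapped, and the log2 fold change was 0.53 (SE 0.06, edgeR adjusted p = 4.24e-07). Tnfrsf23 rose by 0.66 (SE 0.097, edgeR adjusted p = 1.08e-05) and Tnfrsf22, which with Tnfrsf23 is a decoy for Tnfsf10, fell by 0.25 (SE 0.0779, edgeR adjusted p = 0.0103), on the log2 scale. The antisense gene E230032D23Rik covers 4.14% of the exonic bases of Tnfrsf23 and 3.33% of those of Tnfrsf26. The secreted decoy of Tnfsf11, Tnfrsf11b, had 12 saline and 36 bleomycin counts and was not tested.

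Per length, the 3 highest means were those of the same 3 receptors with either treatment. In CPM per kilobase over the 8 saline libraries, Tnfrsf1b stood at 136 ± 19, Tnfrsf1a at 77.3 ± 3.22 and Tnfrsf21 at 61.1 ± 5.23 (SD, n = 8), with no overlap between neighbours. Tnfsf13 came next at 12.5 ± 2.18, and from there each member overlapped the next in rank except Tnfsf13b, at rank 15, which lay above Tnfrsf8. With bleomycin, Tnfrsf1b stood at 266 ± 27.7, Tnfrsf1a at 90.9 ± 11.4 and Tnfrsf21 at 64.1 ± 5.67 (SD, n = 8), and Tnfrsf1a overlapped Tnfrsf21. Ltb moved from rank 22, at 0.286 ± 0.123, to rank 4, at 34.3 ± 16, and its range with bleomycin (12.4 to 60) overlapped that of Tnfrsf21 (55.7 to 72.7), with Ltb the higher in C65. Tnfsf13b moved from rank 15, at 2.35 ± 0.335, to rank 29, at 0.727 ± 0.218.

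**Figure D3:**
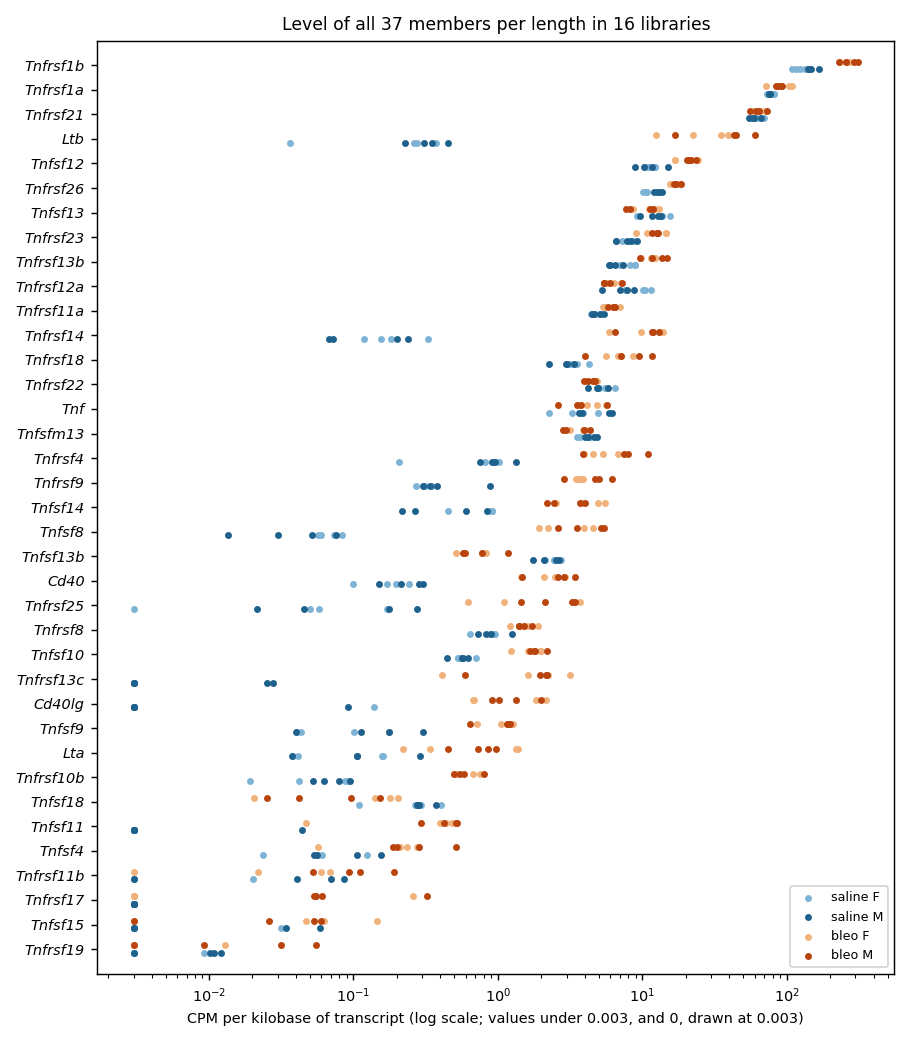
CPM per kilobase of transcript (x axis, log scale) of all 37 members (y axis) in each of the 16 libraries, blue for saline and orange or red for bleomycin, with values under 0.003 drawn at 0.003. Tnfrsf1b, Tnfrsf1a and Tnfrsf21 have the highest means in both treatments, although Ltb (12.4 to 60) overlaps Tnfrsf21 (55.7 to 72.7) with bleomycin, and Ltb, Tnfrsf14 and Tnfsf8 show a wide gap between them.

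The bleomycin libraries differed among themselves, and the lowest 3 for 8 members were also the lowest 3 for markers of several cell types. The summed T cell markers were lowest in C68 (179.1 CPM), C69 (208.7 CPM) and C33 (220.2 CPM), and 414.6 CPM or more in the other 5. The B and plasma cell markers were also lowest there, at 58.8, 126.0 and 101.7 CPM against 227.5 CPM or more. So were the natural killer cell markers (30.2, 35.8 and 39.7 CPM in C68, C69 and C33 against 56.6 CPM or more), the dendritic cell markers (320.3, 489.4 and 370.1 CPM against 505.2 CPM or more) and the fibroblast and endothelial markers (7.42, 12.96 and 12.3 CPM against 16.9 CPM or more). The neutrophil, monocyte, epithelial and alveolar macrophage sums did not have these lowest 3. Neutrophil markers were lowest in C65 (184.3 CPM) and monocyte markers in C49 (5223 CPM). Epithelial markers were highest in C68 and C33, at 486.7 and 375.8 CPM. The mean log2 of CPM plus 1 of the alveolar macrophage markers was highest in C68, C69 and C33 (7.65, 7.59 and 7.23), although their sum was not. In 8 of the 32 tested members the lowest 3 bleomycin libraries were these same 3: Ltb, Tnfsf8, Tnfrsf4, Tnfrsf10b, Tnfrsf13c, Tnfrsf14, Tnfrsf25 and Cd40. All of these but Tnfrsf4 and Cd40 had passed the filter only through bleomycin libraries. Over all genes tested, 6.23% had these lowest 3, and the share among genes that passed in that way is not given here. In Tnfsf13b and Tnfrsf21 these libraries were the highest 3, as in 3.83% of all genes. The libraries fall in separate clusters, so no correlation is given, and the part of these cell types in the members' levels was not tested.

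Omitting these 3 libraries together left C49 and C50 as bleomycin females and C65, C66 and C67 as bleomycin males. In that fit 23 members rose and 6 fell in the mean of the sexes, beside 62.4% of all genes called, 32.6% higher and 29.8% lower. Ltb then had a log2 fold change of 7.20, Tnfrsf25 of 5.04 and Tnfsf13b of -1.995. Tnfrsf1a lost its call, and Tnfsf13 (-0.37, edgeR adjusted p = 0.0224) and Tnfsfm13 (-0.29, edgeR adjusted p = 0.0401) were called lower.

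**Figure D4:**
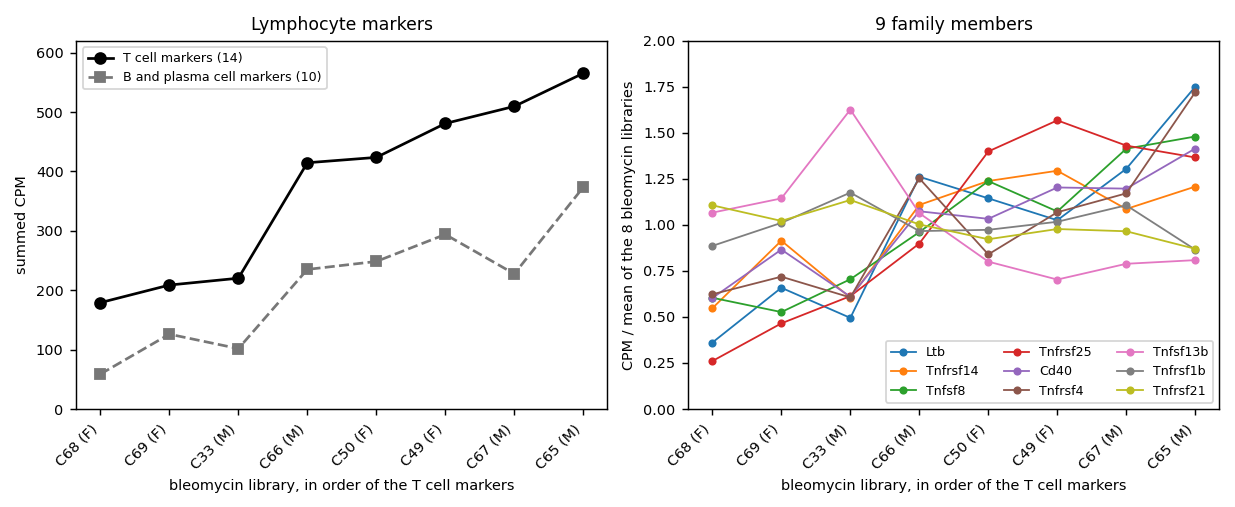
Left, summed CPM of T cell (without Cd2) and of B and plasma cell markers (y axis) in the 8 bleomycin libraries (x axis, ordered by the T cell markers). Right, CPM of 9 members divided by their mean over these libraries; Ltb, Tnfrsf14, Tnfsf8, Tnfrsf25, Cd40 and Tnfrsf4 are low in C68, C69 and C33, and Tnfsf13b and Tnfrsf21 are high there.

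Other genes carry or restrain the signal inside the cell. Of these, 68.8% of the adaptors and ligases, 66.7% of the NF-kB genes and 71.4% of the cell death effectors were called. The 8 feedback inhibitors were all called (100%). Over all genes, 63.6% were called, 34.7% higher and 28.8% lower. In each of these lists more genes were higher than lower with TMM scaling. Of 10 superfamily genes under other symbols 7 were tested and all 7 rose, among them Cd27, a costimulatory receptor, at 1.88 (SE 0.267), Fas, a death receptor, at 0.34 (SE 0.0829), and Relt at 0.29 (SE 0.0915), on the log2 scale. Fasl, Eda2r and Ngfr had saline group means of at most 0.1102 CPM, below the filter at 0.51 CPM. These genes passed through bleomycin libraries and had to be higher there. Of 16 adaptors and ligases 11 rose and 0 fell by edgeR, with 13 at an unadjusted p below 0.05, and 1 fell by DESeq2 and by limma voom. Traf1, an adaptor and known NF-kB target, went from 2.58 ± 0.887 and 4.03 ± 0.866 CPM in saline females and males to 43.7 ± 14.6 and 50.5 ± 9.96 CPM (SD, n = 4), a log2 fold change of 3.86 (SE 0.185, edgeR adjusted p = 3.1e-12). Birc3, a ubiquitin ligase, and Tank, a TRAF partner, rose by 0.92 (SE 0.0891) and 0.57 (SE 0.0565).

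Of 7 cell death effectors 5 rose, led by Bid at 1.28 (SE 0.0856), which links caspases to mitochondria, and by the necroptosis genes Mlkl at 1.10 (SE 0.0942) and Ripk3 at 0.95 (SE 0.0886). Casp8 was not called at -0.095 (SE 0.0563, edgeR adjusted p = 0.147). Of 9 NF-kB subunits and kinases 5 rose and 1, Ikbkb, fell. The largest changes were those of the non-canonical arm, Relb at 1.39 (SE 0.0982), Map3k14 at 0.999 (SE 0.118) and Nfkb2 at 0.44 (SE 0.0599), while Nfkb1 was not called at 0.0017 (SE 0.0549, edgeR adjusted p = 0.981).

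Of 8 feedback inhibitors 7 rose and 1, Tnip2, fell, and the inhibitors of NF-kB Nfkbia and Nfkbie and the binding protein Tnip1 rose by 0.85 (SE 0.127), 0.63 (SE 0.118) and 0.59 (SE 0.072). In a list of 5 genes drawn up for ligand shedding 3 rose and 1 fell, so 80% were called beside 63.6% of all genes. The list included Spata2, which is not a shedding gene and was not called at 0.12 (SE 0.0573, edgeR adjusted p = 0.0707). Adam10, a sheddase, and Rhbdf2, which carries the TNF sheddase to the surface, rose by 0.52 (SE 0.0535) and 0.68 (SE 0.0588), and its relative Rhbdf1 fell by 0.68 (SE 0.133), on the log2 scale. With library totals alone as the scale, the median of all genes moved from 0.0116 to -0.20, 34.7% of calls over all genes were higher in place of 54.6%, and the adaptors went to 5 higher and 3 lower and the NF-kB genes to 3 higher and 4 lower.

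**Figure D5:**
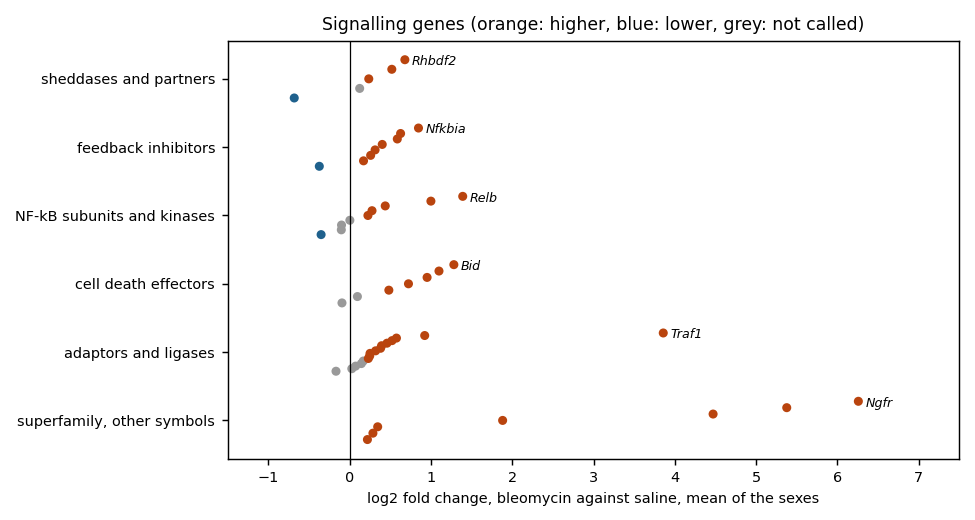
Log2 fold change of bleomycin against saline in the mean of the sexes (x axis) for the tested genes of 6 lists (y axis), with orange for higher, blue for lower and grey for not called, and the gene with the largest rise in each list named. Traf1, Relb and Bid lead their lists at 3.86, 1.39 and 1.28; Ngfr, at under 1 CPM in every group, rests on few counts.

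The response of the family to bleomycin was alike in direction in males and females. In males 23 members rose and 2 fell, beside 56.5% of all genes called (31.5% higher, 24.9% lower), and in females 23 rose and 3 fell, beside 43.9% (26.7% higher, 17.2% lower). The sign was the same in both sexes for 31 of 32 members, and 24 were called in both. Of the 32, 10 had passed the filter only through bleomycin libraries and Tnfsf18 only through saline libraries. Their signs were largely fixed by the filter, and the share of all genes with the same sign is not given here. Tnfsf18 was called in males alone, Tnfrsf12a and Tnfrsf22 in females alone, and Tnf, Tnfsf13, Tnfsfm13, Tnfrsf1a and Tnfrsf21 in neither.

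The difference between the sexes in the response was called in 0 members by edgeR, with 1 at an unadjusted p below 0.05, and in 0 by DESeq2 and limma voom, beside 0.00655% of all genes. That member was Tnfrsf13b, whose log2 fold change was 0.95 (SE 0.128) in males and 0.48 (SE 0.127) in females, a difference of 0.47 (SE 0.18, edgeR unadjusted p = 0.0174, adjusted p = 0.604). With C33, C68 and C69 omitted together the difference in Tnfrsf13b was 0.66 (edgeR adjusted p = 0.0176), 1 of 32 members beside 17.3% of all genes. That fit kept only C49 and C50 as bleomycin females, and the omission was chosen after seeing the values. The count of such differences therefore depended on which libraries were kept.

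Between males and females given bleomycin 0 members were called by edgeR, 0 at an unadjusted p below 0.05, and 0 by DESeq2 and limma voom, beside 0.059% of all genes (0.0328% higher in males, 0.0262% lower). Between saline males and females 0 members were called by edgeR, with 4 at an unadjusted p below 0.05, and 0 by DESeq2 and limma voom, beside 0.269% (0.144% higher in males, 0.125% lower). These 4 were Tnfrsf1b (0.31 higher in males on the log2 scale, SE 0.1), Tnfrsf12a (-0.45, SE 0.155), Tnfrsf13b (-0.36, SE 0.129) and Tnfrsf26 (0.21, SE 0.0854). A fit on the saline libraries alone called Tnfrsf1b (0.30, SE 0.0709, edgeR adjusted p = 0.0293) and Tnfrsf13b (-0.37, SE 0.0971, edgeR adjusted p = 0.0433). That fit called 5.69% of all genes, 2.9% higher in males and 2.79% lower. The libraries of the sexes did not overlap in 1 member in saline, Tnfrsf1b, beside 13.1% of all genes (6.85% with males above, 6.3% below), and in 0 members with bleomycin, beside 1.29% (0.741% above, 0.551% below).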

How the data were processed

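RNA of bronchoalveolar lavage cells was sequenced in 16 libraries, and the authors deposited whole-number counts per gene, which are used here. Per the submitters' processing notes, reads were handled with featureCounts (1.5.0-p3), HISAT2 (2.0.5), fastp (0.12.2) and DESeq2, and no role is stated for the builds mm9 and mm10. The deposited coordinates of all 37 members were identical to GENCODE M21 (GRCm38). Strand and the handling of multi-mapped reads are not given in the sources used here.

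Counts were fitted in R 4.3.3 with edgeR 4.0.16: filterByExpr (minimum count 10), TMM scaling, one coefficient per group and quasi-likelihood F tests, with Benjamini-Hochberg adjustment over 15257 genes and a threshold of 0.05. SE is the log2 fold change divided by the square root of F. Count intervals (95%) and the limit of 3 counts cover counting error only. Replicate pairs differed by 4.5 to 70.6 in chi-square per gene, so none was a repeat. Library codes are not shared between groups, so no pairing was fitted. Alternatives were DESeq2 1.42.0 (size factors, test), limma 3.58.1 voom, library totals, other filters, the compared groups alone, and leaving libraries out.

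Values in every library are given for the 12 called members with the largest change and at least 5 CPM in the higher group, for the 6 highest in CPM per kilobase, and for Tnf, added after its values were seen. For lists, the 3 largest called changes at 5 CPM or more are named, and the others (Casp8, Nfkb1, Ikbkb, Tnip2, Ngfr) were chosen after their values were seen. The members, lists and markers were chosen with earlier results of these data known. The T cell sum leaves out Cd2, and C33, C68 and C69 were omitted together, both after seeing the values. Tests were tested on simulated data.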

Additional observations from a re-analysis of the deposited data

Results flagged for a closer look

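Within a group of 4 libraries, 1 library stood far from the other 3 (its gap to the nearest divided by the whole range above 0.829) in 9 of the 128 combinations of tested member and group; chance gives about 1 in 20. In saline females, Tnfsf14 was 0.833 CPM in C74 against 1.65 to 1.70 CPM in the others, and Cd40lg was 0.174 CPM in C75 against 0. In saline males, Tnfrsf9 was 2.40 CPM in C71 against 0.827 to 1.03 CPM, and Tnfsf18 was 0.776 CPM in C70 against 0.572 to 0.588 CPM. Also in saline males, Cd40lg was 0.114 CPM in C71 and Tnfsf11 was 0.098 CPM in C72, each with 0 in the other 3 libraries.

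In bleomycin females, Tnfsfm13 was 7.07 CPM in C50 against 8.73 to 8.91 CPM. In bleomycin males, C33 was the library apart in both remaining cases, with Tnfrsf13c at 1.22 CPM against 3.98 to 4.47 CPM and Tnfsf9 at 0.829 CPM against 1.49 to 1.57 CPM. C33 was also the bleomycin male library with the lowest summed T cell markers; the part of these cells was not tested.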

How the results depend on the processing

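Over 23 alternatives and 32 members, 709 of the fitted log2 fold changes kept direction and side of the threshold, 3 lost their call, 8 gained one and 14 changed sign. The sign changes were those of 2 uncalled members. Tnf moved from 0.013 to -0.0004824 with DESeq2 size factors, -0.1973 with library totals, -0.002988 without a filter, -0.009418 with a strict filter and -0.000234 by DESeq2; leaving out C76, C77, C70, C72, C50, C69 or C66 gave -0.07016, -0.008234, -0.04606, -0.03692, -0.05976, -0.01632 and -0.122, in a range up to 0.1112 without C75. Tnfrsf21 moved to -0.1409 with library totals and -0.02301 without C33, C68 and C69. Tnfsf13 was also called lower without a filter (-0.2674), without C74 (-0.3171) and without C33 (-0.3048), and Tnfsfm13 without C65 (-0.2765). Members higher and lower in the mean of the sexes ran from 22 to 26 and from 3 to 6.

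Library totals alone moved the other superfamily symbols from 7 to 4 higher, adaptors from 11 to 5 higher and 0 to 3 lower, cell death effectors from 0 to 1 lower, NF-kB genes from 5 to 3 higher and 1 to 4 lower, feedback inhibitors from 7 to 4 higher and members in males from 2 to 6 lower. The strict filter gave 2 NF-kB genes lower and 1 member lower in males. Adaptors lower became 1 with DESeq2 size factors, without a filter, with the strict filter, by DESeq2, by voom, and without C33, C68 and C69, which also gave 1 cell death effector lower and 1 member with a difference in response between the sexes. Saline sexes fitted alone gave 1 member higher and 1 lower. Leaving out 1 library gave 0 to 1 adaptors lower, 1 being without C74, C69, C65 or C66, and 1 to 2 NF-kB genes lower, 2 being without C49, C50 or C65. The causes were not tested. Depth limits the 5 untested members and the folds of Tnfrsf13c, Tnfsf11 and Cd40lg, which rest on 2 to 6 saline counts.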
